A study of Mus musculus with 27 samples.

Results

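The net change in the wild-type C57BL/6J mouse esophagus from its earliest embryonic profile to postnatal day 7 (P7) was described as the difference between 3 P7 arrays and 3 embryonic arrays, 6 of the 27 arrays of the series. The embryonic arrays were those labelled E11.5 replicates 1 and 2 and E15.5 replicate 1, which is a regrouping by the measured profiles and not the labelled groups. Over 23106 genes these 3 arrays correlated at 0.872 to 0.937 with each other, and E15.5 replicate 1 at 0.937 and 0.901 with E11.5 replicates 1 and 2 but at 0.81 and 0.827 with E15.5 replicates 2 and 3. E11.5 replicate 3 was left out, since it correlated at 0.962 and 0.959 with E15.5 replicates 2 and 3. Together these last 3 are called the other embryonic arrays, and whether the 2 labels were exchanged was not tested.

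Each array held RNA of one dissected esophagus with all its layers, labelled with Cy5, against Universal Mouse Reference RNA labelled with Cy3, with no dye swap. A value is the log2 ratio of the 2 colours, so 0 equals the reference, and a net change of 1 is 2-fold. The 3 wild-type P0 esophagi and 3 wild-type samples labelled as esophageal epithelium from adults of 8 weeks are used for comparison, as are 3 P7 esophagi of Nrf2-/- mice in 1 place. In the adult samples 16 of 16 smooth muscle genes were well above background on each array (mean log2 ratio 1.54 to 1.79, against 0.89 to 1.59 on the early arrays). So were 30 to 32 of 39 skeletal muscle genes, against 25 to 32 on the early arrays. Of 27 enteric neuron and glia genes 11 to 12 were, against 22 to 24 on the early arrays. The part of other layers in the adult samples was not tested, so their label is not taken to mean pure epithelium. No group carried a transgene. All embryonic arrays of the early profile lay on 1 slide and all P7 arrays on another, so slide and net change cannot be told apart.

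Early in development the esophagus is a tube of columnar epithelium, some of it ciliated, inside undifferentiated mesenchyme, and it shares its origin with the trachea in the foregut. The columnar cells give way to a stratified squamous epithelium. Its basal cells divide, its suprabasal cells change their keratins, and its surface cells crosslink small proteins into a cornified envelope. Around it the mesenchyme becomes smooth muscle and, in the mouse, mostly striated muscle.

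The largest increases at P7 that were also called against the labelled embryonic arrays included the protease inhibitor gene Cstdc6, the epithelial genes Mal and Upk1b and the muscle genes Tnnt3, Myl1 and Ckm, and the largest decreases included Foxa2 of the early endoderm, the chemokine gene Cxcl13 and Cyp26a1, which breaks down retinoic acid. Of 15630 genes with a value on all 6 arrays, 1458 were at least 2-fold higher at P7 with no overlap of the 3 and 3 arrays (9.33%), and 586 were lower by the same rule (3.75%), together 13.1%. These genes are called separated below. The excess of higher genes depended on the processing. The scanner software's own processed signals gave 2094 higher and 2186 lower of 15632 genes. The deposited ratios gave 2846 and 2590 of a larger set of 19527 genes, since no marked spot was left out there. The separated genes were chosen by the net change itself, so their differences are a description with no test. The median net change of all genes was −0.004, 5% of genes lay below −0.9 and 5% above 1.57, and the range was −4.64 to 8.63. At the limit of 2-fold, Fbn1 at 1.0 was just inside and Ucp2 at 0.9997 just outside, and on the other side Bdh2 at −1.0 and Cenpi at −0.9996. Spots that the scanner software marked as outliers were left out. Many of the brightest epithelial and muscle genes have no value on all 6 arrays then, and with those spots kept 3217 of 19525 genes were separated (16.5%), 2254 higher (11.5%) and 963 lower (4.93%). Values with those spots kept are marked below as all-spot values.

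The labels were tested as they stand. In limma's test with Benjamini-Hochberg adjustment over 16508 genes in a fit of the 12 wild-type time-course arrays (4 labelled groups of 3), P7 differed from the 6 embryonic arrays together in 5284 genes (32%), 2981 higher (18.1%) and 2303 lower (14%). P7 differed from the 3 arrays labelled E11.5 in 4211 genes (25.5%), and from P0 in 372 (2.25%), 242 higher (1.47%) and 130 lower (0.787%). With all spots kept the 3 comparisons called 36.2%, 30.1% and 2.36% of 19527 genes, of which 19.8% higher and 16.4% lower against the embryonic arrays and 1.41% higher and 0.953% lower against P0. Both labelled embryonic groups hold arrays of the 2 profiles, so genes that differ between these profiles have a large spread in this fit. The adjusted p values below are those of P7 against all 6 embryonic arrays unless P0 is named. They rest on the spread between esophagi within labelled groups, which in the embryonic groups includes the difference between the 2 profiles. The P0 comparison shares this spread, and with only P0 and P7 in the fit 789 genes were called. In these whole tissues, more cells of a type and more RNA per cell cannot be told apart.

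Arrays within each side also differed. On E11.5 replicate 2 the SD of the log2 ratios was 0.593, against 0.733 to 0.822 on the other 11 time-course arrays, and its values had a slope of 0.705 on those of E11.5 replicate 1. Without this array 2265 genes were separated. The P7 arrays correlated at 0.880 to 0.921. Stomach markers were high on P7 replicates 1 and 2 only, with Gkn2, a secreted gastrokine, at 6.53, 5.79 and −0.29. Liver markers were highest on P7 replicate 2, with Afp, the fetal serum protein, at 2.88, 6.18 and 2.9. In place of the wild-type P7 arrays, the 3 Nrf2-/- P7 arrays, from another slide, gave 1463 genes higher and 679 lower.

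Cornified envelope genes were higher at P7 in nearly every member. Of 11 cornified envelope and keratohyalin genes measured on all 6 arrays, 10 were separated higher, with a median net change of 2.81, and with all spots 18 of 19, with a median of 3.67. None was lower. Of the small proline-rich genes, whose products are crosslinked into the envelope, 10 of 10 were separated higher with all spots, with a median of 3.77. Of the late cornified envelope genes, 8 of 9 were separated higher, with a median of 3.46, and 13 of 14 with all spots. P7 differed from the embryonic arrays in 10 of 11 tested cornified envelope genes and 11 of 11 tested late envelope genes, all higher.

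Members of these lists appeared at different times. Cnfn, which encodes the envelope protein cornifelin, stood at 0.34, 0.22 and 0.09 on the early arrays and at 4.53, 4.84 and 4.64 at P7, a net change of 4.46 (SD 0.12 and 0.16, n = 3 each; adjusted p = 1.56e-06, limma). The other embryonic arrays were still near the early ones, at 0.85, 0.81 and 0.85, and the 2 P0 arrays with a value were at the P7 level, at 4.59 and 4.65. Sprr3 followed the same course in all-spot values, with 0.02, 0.07 and −0.1 early, 0.6, 0.44 and 0.46 on the other embryonic arrays, 5.63, 5.51 and 4.97 at P0 and 5.46, 5.96 and 5.6 at P7. For both genes the step lay between the other embryonic arrays and P0.

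The late cornified envelope genes came after that. Lce1a1 was measured at 0.41, 0.41 and 0.49 on the early arrays, 1.09, 2.23 and 0.28 at P0 and 4.97, 5.57 and 3.84 at P7. Its net change was 4.36, and P7 was also higher than P0, by 3.6 (adjusted p = 0.00318, limma). Of 11 tested late envelope genes, 9 were higher at P7 than at P0. Calm4, a skin calmodulin, stood at 0.2, 0.17 and 0.06 early and at 4.71, 5.05 and 4.29 at P7, 1.91 above P0 (adjusted p = 0.00673, limma). Rptn, which encodes repetin of the keratohyalin granules, was at −0.01, 0.03 and 0.22 early, 2.5, 3.54 and 1.67 at P0 and 4.8, 5.0 and 4.23 at P7 in all-spot values.

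P7 replicate 3 stood below the other P7 arrays in part of these genes. Flg, which encodes the precursor of filaggrin, was at 0.2, 0.66 and 0.21 early and at 2.96, 3.35 and 0.61 at P7, so that its groups overlapped. Krt10, a suprabasal keratin of cornifying epithelia, was at 0.4, 0.45 and 0.36 early and at 3.88, 4.32 and 0.51 at P7, and its partner Krt1 at 0.3, 0.35 and 0.33 against 2.94, 3.28 and 1.0. Lor, which encodes loricrin, was already high early at 5.97, 4.17 and 6.11, was lower on the other embryonic arrays at 4.08, 3.9 and 4.33, and reached 6.79, 7.41 and 6.68 at P7 in all-spot values. The source of its early value was not tested.

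**Figure D1:**
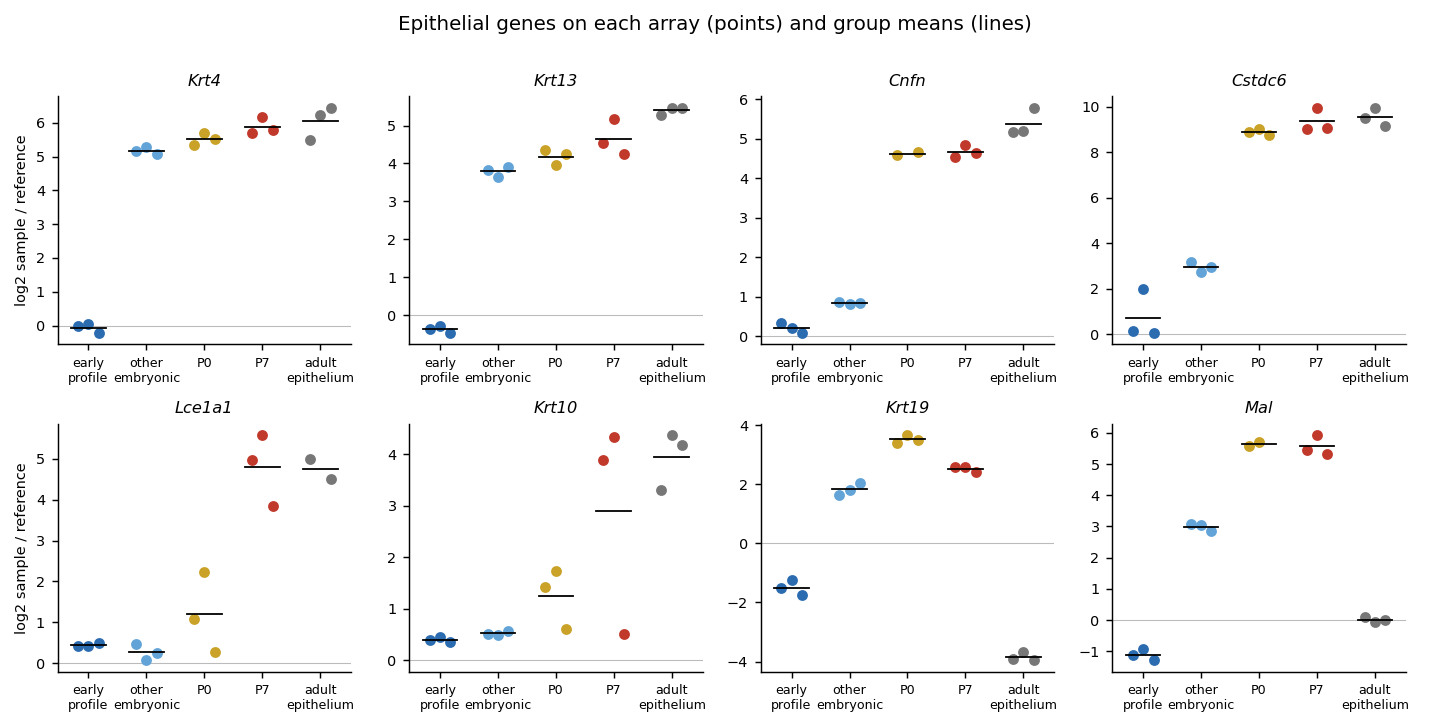
Log2 ratio of sample to reference for 8 epithelial genes (vertical axes) in the early profile, the other embryonic arrays, P0, P7 and adult epithelium, each point 1 array and each line a group mean; Krt4, Krt13 and Krt19 are all-spot values, and points are missing where a spot was marked. Krt4 and Krt13 were high by the other embryonic arrays, Cnfn by P0 and Lce1a1 at P7, Krt10 was low on P7 replicate 3, and Krt19 and Mal were low in adult epithelium.

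Many of these genes lie side by side. In the order of the RefSeq genes and counting measured genes only, 26 neighbours on chromosome 3 were all separated higher in all-spot values, from S100a8 and S100a9 through Lor, the Sprr2 genes, Sprr3, Sprr1a and Ivl to 10 Lce1 genes and Kprp. These genes form the epidermal differentiation complex. Sprr2 and Lce1 genes are near-identical copies of each other, so a probe of 1 can also bind the transcript of the next, and their values are not independent. Another 5 neighbours, Hrnr, Rptn, Tchh, S100a11 and S100a10, and 6 of the cystatin A and stefin A cluster, from Csta1 to Stfa3, were also higher without a gap.

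Promoter sequences are shown for Sprr1a, Ivl and Lce1a1, since the first 2 were high from P0 and the third from P7. They hold the 250 bases before the RefSeq start on GRCm38.p6, 5′ to 3′ on the strand of the gene, here the minus strand, at chr3:92485882-92486131, chr3:92573736-92573985 and chr3:92648308-92648557. Capitals mark TGANTCA, the letters of an AP-1 site, searched on both strands.
Sprr1a: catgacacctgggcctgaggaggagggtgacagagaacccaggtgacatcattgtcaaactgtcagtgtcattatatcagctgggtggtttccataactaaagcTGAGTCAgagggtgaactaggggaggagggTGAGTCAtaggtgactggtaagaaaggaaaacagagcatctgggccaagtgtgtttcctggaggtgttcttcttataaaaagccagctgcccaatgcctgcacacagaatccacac
Ivl: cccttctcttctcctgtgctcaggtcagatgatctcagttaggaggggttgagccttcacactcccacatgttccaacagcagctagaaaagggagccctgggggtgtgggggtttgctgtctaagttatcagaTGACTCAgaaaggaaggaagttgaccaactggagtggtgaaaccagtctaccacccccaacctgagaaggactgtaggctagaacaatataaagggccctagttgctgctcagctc
Lce1a1: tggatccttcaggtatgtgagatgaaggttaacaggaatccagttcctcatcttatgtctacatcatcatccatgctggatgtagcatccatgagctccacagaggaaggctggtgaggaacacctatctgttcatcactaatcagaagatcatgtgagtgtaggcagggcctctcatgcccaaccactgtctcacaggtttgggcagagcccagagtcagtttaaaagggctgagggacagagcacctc
The letters occur in 6.87% of 27025 promoters of this length. They occur in 11 of 18 cornified envelope genes with a promoter in the table (61.1%), in 9 of 14 small proline-rich genes (64.3%) and in 0 of 20 late cornified envelope genes. They also occur in 0 of 15 genes of envelope crosslinking and barrier lipid enzymes and in 1 of 11 basal and suprabasal keratins (9.09%). Whether the letters go with the time of the increase was not tested. Copies of a family share promoter sequence, and a match is not a measured binding site. Sprr1a stood at −1.93, −0.73 and −1.94 early, at 2.76, 2.82 and 2.37 at P0 and at 3.32, 3.77 and 3.11 at P7 in all-spot values. Ivl, which encodes involucrin, was at −0.22, −0.43 and −0.17 early, at 1.19, 0.8 and 0.78 at P0 and at 1.39, 1.65 and 1.23 at P7.

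Keratins of the stratified epithelium were high before birth. With all spots, 14 of 18 basal and suprabasal keratins were separated higher, with a median net change of 2.77. Krt4, the main suprabasal keratin of the esophagus, was at −0.03, 0.06 and −0.21 early, at 5.17, 5.28 and 5.09 on the other embryonic arrays and at 5.72, 6.17 and 5.8 at P7. Its partner Krt13 was at −0.36, −0.29 and −0.46 early, at 3.84, 3.65 and 3.92 on the other embryonic arrays and at 4.53, 5.16 and 4.25 at P7. Thus most of their net changes of 5.96 and 5.02 were reached on the other embryonic arrays, and both genes missed the threshold against the labelled embryonic groups, which mix the 2 profiles (adjusted p = 0.0739 and 0.0542, limma).

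The basal keratin Krt14 was at −1.17, −0.45 and −1.04 early and at 2.52, 3.35 and 2.56 at P7 in all-spot values, while Krt5, its partner, had started at 2.27, 2.5 and 2.66 and reached 3.38, 3.99 and 3.47. The net changes were 3.7 and 1.14. Krt16, a keratin of activated and cornifying keratinocytes, was absent from this early course, with −0.31, −0.02 and −0.16 on the other embryonic arrays. It reached 4.54, 4.87 and 4.33 at P7 from 0.12, 0.09 and 0.38 early (adjusted p = 2.94e-07, limma).

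The reference was the same RNA on every array, but its Cy3 signal moved with Cy5 on the probes with the largest changes. Where Cy5 of a probe was over 8-fold higher at P7 (725 probes), its Cy3 signal was higher by a median of 0.36 log2, where Cy5 was over 8-fold lower (91 probes) it was lower by 0.49, and over all probes it changed by −0.04. For Krt4 the Cy5 level was 9.41 log2 higher at P7 and the Cy3 level 3.45 higher, which leaves a ratio change of 5.96, and for Krt6a, a keratin of the esophagus and of hair follicles, they were 9.34 and 5.88 higher, which leaves 3.46. The source of the Cy3 change was not tested, so ratio and Cy5 level give different folds for such probes. Probes not well above background on any early array have only a bound there. The bound sets the mean Cy5 level at P7 against the lowest level that is well above background on each early array, after loess and Aquantile scaling, and without dye swaps it is open to dye bias. It is a bound on the change in Cy5 level alone, not on the change in ratio. It was at least 652-fold for Krt4, against 62.1-fold by ratio, at least 178-fold for Sprr3, against 51.1-fold, and at least 264-fold for Mal, against 102.5-fold. Krt6a was at −0.14, −0.01 and −0.22 early and 3.3, 3.65 and 3.06 at P7, which is 11-fold by ratio and at least 641-fold by the Cy5 level alone.

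Cell junction genes were higher at P7 as well. Of 10 desmosome genes, 6 were separated higher, against 9.33% of all genes, and 6 were called higher against the embryonic arrays, against 18.1%. Their median net change was 1.46. Dsc2, which encodes desmocollin 2, stood at 0.28, 0.29 and 0.29 early, at 2.83, 3.1 and 2.82 on the other embryonic arrays and at 5.01, 5.46 and 5.06 at P7 (net change 4.89, adjusted p = 0.00251, limma). Dsg1a, the desmoglein of upper layers, came later, with −0.23, 0.12 and 0.05 early and 2.19, 2.89 and 2.38 at P7, 1.31 above P0 (adjusted p = 0.0234, limma). Of 17 gap and tight junction genes, 8 were separated higher and 1 lower, with a median of 1.03. The connexin gene Gjb6 was at 0.93, 1.48 and 1.53 early and 4.0, 4.61 and 4.66 at P7. Cldn11, the 1 lower member, was at 4.26, 4.2 and 5.02 early and 1.6, 0.76 and 1.59 at P7.

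The net change was largest in a protease inhibitor. Cstdc6, a member of the stefin A family, stood at 0.12, 1.99 and 0.07 early, at 3.16, 2.73 and 2.96 on the other embryonic arrays, at 8.91, 9.02 and 8.75 at P0 and at 9.05, 9.97 and 9.06 at P7. The difference of 8.63 was larger than any other of the 15630 genes. Of 15 epithelial proteases and inhibitors, 10 were separated higher and 14 called higher, with a median of 1.62. Serpinb2, an inhibitor of plasminogen activators, was at −0.8, −0.78 and −0.88 early and at 3.37, 3.98 and 3.65 at P7. It was still at −0.89, −1.04 and −1.23 on the other embryonic arrays.

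Enzymes that crosslink the envelope or make barrier lipids were split in time. Of 12 measured members 8 were separated higher and 9 called higher, with a median of 1.65. Tgm1, the transglutaminase of the envelope, was at 0.4, 0.21 and 0.1 early, at 3.64, 3.77 and 3.67 on the other embryonic arrays and at 4.5, 4.95 and 4.63 at P7 in all-spot values. Elovl4, which elongates very long fatty acids, was at 1.75, 1.77 and 1.55 early and still at 2.32, 2.74 and 1.38 at P0, but at 4.25, 4.25 and 3.2 at P7, 1.76 above P0 (adjusted p = 0.0262, limma). Alox12e went the other way after birth. It stood at −0.1, −0.13 and 0.19 early, 5.17, 5.38 and 5.13 at P0 and 2.28, 2.96 and 2.46 at P7 in all-spot values, so P7 was 2.58 above the early arrays and 2.66 below P0 (adjusted p = 0.00559, limma).

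**Figure D2:**
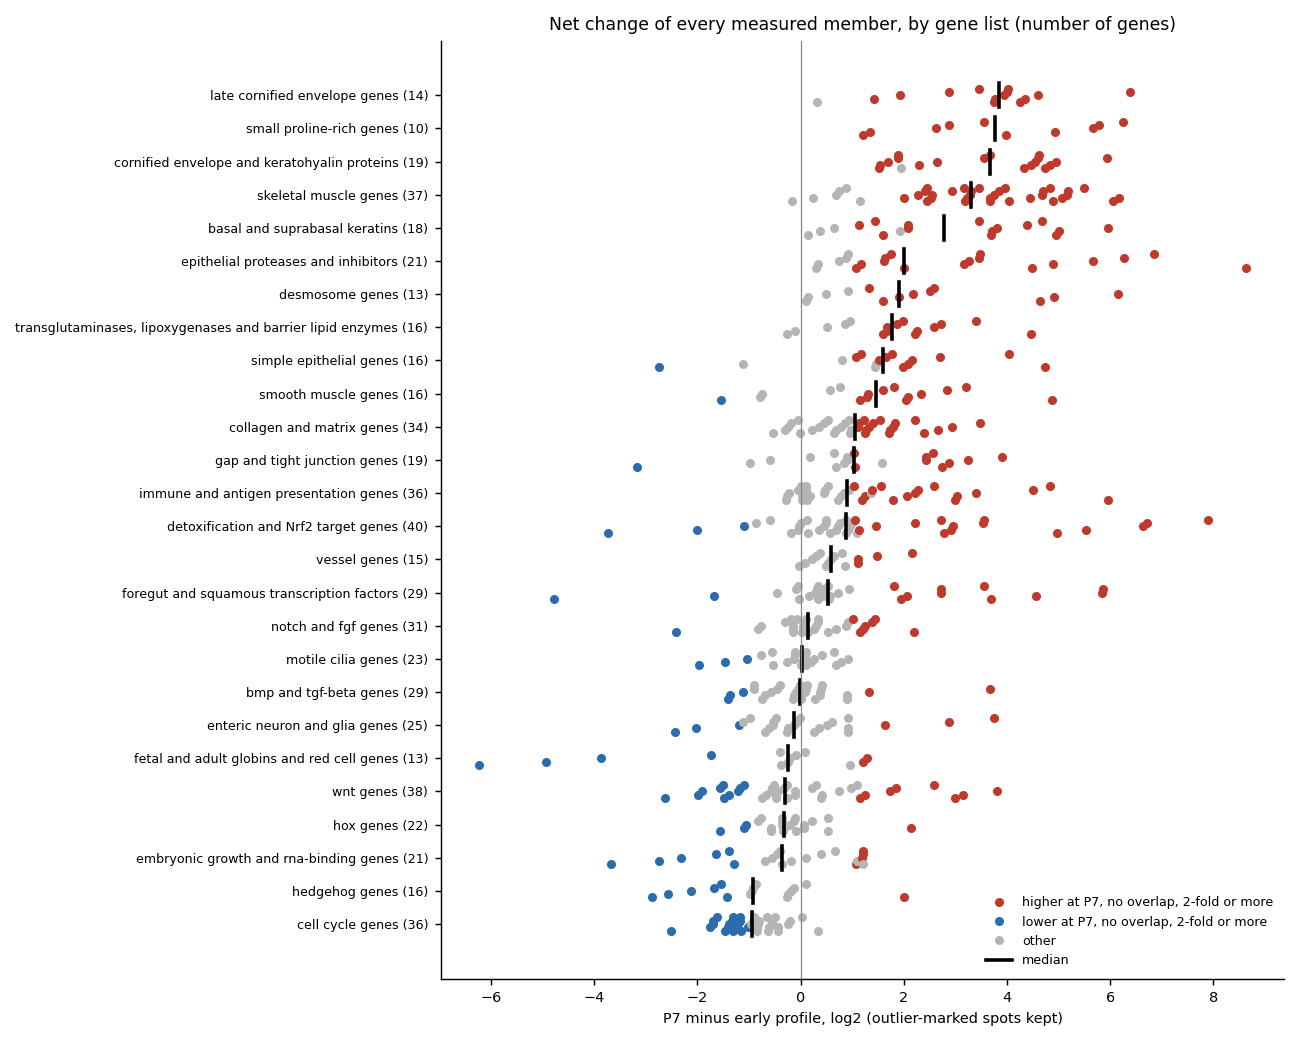
Net change from the early profile to P7 (log2, horizontal axis, all-spot values) of every measured member of 26 gene lists, with the number of genes, ordered by the median (black line). Red and blue points are separated higher and lower genes; late cornified envelope genes had the highest median and cell cycle genes the lowest.

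Genes of simple, columnar epithelium were not lower at P7 as a group. With all spots, 11 of 16 were separated higher and 1 lower, with a median of 1.6. The means of these 16 genes were 2.85, 2.4 and 1.93 at P7, against 0.68 to 0.95 early, and those of the stomach and intestine markers, which share Vil1 with them, were 2.9, 1.55 and 0.004 in the same order of arrays. The part of these markers' tissue in the list was not tested. Krt19, a keratin of simple and basal epithelia, was at −1.5, −1.24 and −1.75 early, at 3.4, 3.66 and 3.51 at P0 and at 2.57, 2.6 and 2.43 at P7. It was at −3.92, −3.69 and −3.96 in adult epithelium. Krt8 was at −1.72, −0.94 and −1.98 early, at 0.93, 0.88 and 0.05 at P7 and at −4.27, −4.38 and −3.78 in adult epithelium. Cldn6, a claudin of embryonic epithelia, was the lower member, with 3.27, 2.21 and 3.43 early and 0.44, 0.17 and 0.05 at P7.

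Some of the genes with the largest increases were low in the adult epithelium samples. Mal, a lipid raft protein of apical sorting, was at −1.13, −0.92 and −1.29 early, at 5.45, 5.92 and 5.33 at P7 and at 0.09, −0.06 and 0.0 in adult epithelium. Upk1b, which encodes a uroplakin of the bladder lining, was at 0.16, 0.87 and 0.66 early, 6.15, 7.3 and 6.69 at P7 and −2.0, −1.3 and −2.52 in adult epithelium. The mucin gene Muc20 was at −0.95, −1.05 and −1.03 early, 4.22, 5.23 and 4.61 at P7 and −0.49, −0.52 and −0.87 in adult epithelium. Cysrt1, Unc93a and Psapl1, with net changes of 6.03, 5.25 and 5.16, stayed high there at 5.57 and above.

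Transcription factors of the foregut and of squamous cells moved both ways. Of 22 measured, 5 were separated higher and 2 lower, against 9.33% and 3.75% of all genes, with a median of 0.35. Foxa2, a factor of the early endoderm, held the largest decrease of these 15630 genes. It stood at 5.71, 5.7 and 5.74 early, at 4.8, 4.82 and 4.84 on the other embryonic arrays, at 1.62, 2.11 and 1.64 at P0 and at 3.52, 0.51 and −0.79 at P7, a net change of −4.64 (adjusted p = 0.00167, limma). P7 replicate 1, the highest of the 3, also had the highest mean of the 13 stomach and intestine markers, 2.9, against 1.55 and 0.004 on P7 replicates 2 and 3 and −0.06 to 0.01 on the early arrays, and their part in its Foxa2 value was not tested.

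Sox9, a factor of columnar progenitors and cartilage, was at 1.18, 1.54 and 1.37 early and 0.32, 0.05 and −0.35 at P7. Ehf and Elf3, epithelial ETS factors, were higher, Ehf at −0.06, −0.09 and 0.02 early and 3.22, 4.0 and 3.39 at P7, and Elf3 at −1.28, −0.15 and −1.25 against 2.5, 3.26 and 2.6. Zfp750, a regulator of late keratinocyte differentiation, was at 0.16, −0.08 and 0.03 early and already at 4.18, 4.43 and 3.91 on the other embryonic arrays, with 5.25, 6.3 and 6.12 at P7 in all-spot values. The factors that specify the esophagus changed little. Sox2 was at 6.13, 4.9 and 6.83 early and 5.79, 6.69 and 6.32 at P7, and Trp63 at 2.43, 2.38 and 2.24 against 2.4, 2.42 and 2.61. Their adjusted p values were 0.936 and 0.803 (limma), which does not show equal levels.

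Motile cilia genes passed through a maximum that a comparison of the end points does not show. Their median net change over 20 genes was 0.06, with 3 separated lower and none higher. On the other embryonic arrays 8 of the 18 cilia genes with all values were at least 2-fold above both ends, against 1.31% of 15058 genes, and 3 of them were so at P0 as well, against 0.299%. Foxj1, the master factor of motile cilia, stood at 0.74, 0.29 and 0.99 early, 4.49, 4.5 and 4.19 on the other embryonic arrays, 3.17, 3.65 and 3.21 at P0 and −0.14, −0.17 and 0.06 at P7 in all-spot values. Spag6l, of the central apparatus of the axoneme, was at 0.23, 0.11 and −0.05 early, 3.62, 4.21 and 3.36 on the other embryonic arrays, 1.2, 1.61 and 1.62 at P0 and 0.17, 0.1 and 0.32 at P7. Rsph1, a radial spoke gene, was at −0.14, −0.46 and −0.59, then at 2.98, 3.17 and 2.76, at 1.12, 1.71 and 1.42 and at −0.11, −0.36 and 0.05.

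The tektin genes Tekt1 and Tekt2 were already expressed early. Tekt1 was at 2.39, 2.04 and 2.79 early, 4.19, 4.9 and 4.49 on the other embryonic arrays and 1.09, 0.43 and 1.33 at P7 (adjusted p = 0.00505, limma). Tekt2 was at 3.06, 2.55 and 3.43 early and 1.15, 1.12 and 0.87 at P7. Markers of trachea and lung moved partly with these genes. The mean over 10 of them was −0.24 to −0.04 early, with 2 to 3 well above background, 0.76 to 0.99 on the other embryonic arrays, 1.66 to 2.73 at P0 and 0.87 to 1.37 at P7, with 5 to 6 well above background. Nkx2-1, which defines trachea and lung, was not well above background on any early or P7 array. The part of neighbouring airway in the cilia values was not tested.

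The promoter of Tekt1 is shown because its gene is at the maximum of this course. It lies on the minus strand at chr11:72361883-72362132 on GRCm38.p6, with GTTGCC in capitals, a half-site of the motif bound by the RFX factors of cilia genes, on either strand.
Tekt1: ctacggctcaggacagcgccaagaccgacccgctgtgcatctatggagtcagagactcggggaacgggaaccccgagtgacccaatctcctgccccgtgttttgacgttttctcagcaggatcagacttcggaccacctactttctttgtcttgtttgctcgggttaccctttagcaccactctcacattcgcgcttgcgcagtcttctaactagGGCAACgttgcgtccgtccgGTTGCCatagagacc
These letters occur in 10.5% of all promoters and in 8 of 23 cilia genes (34.8%).

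**Figure D3:**
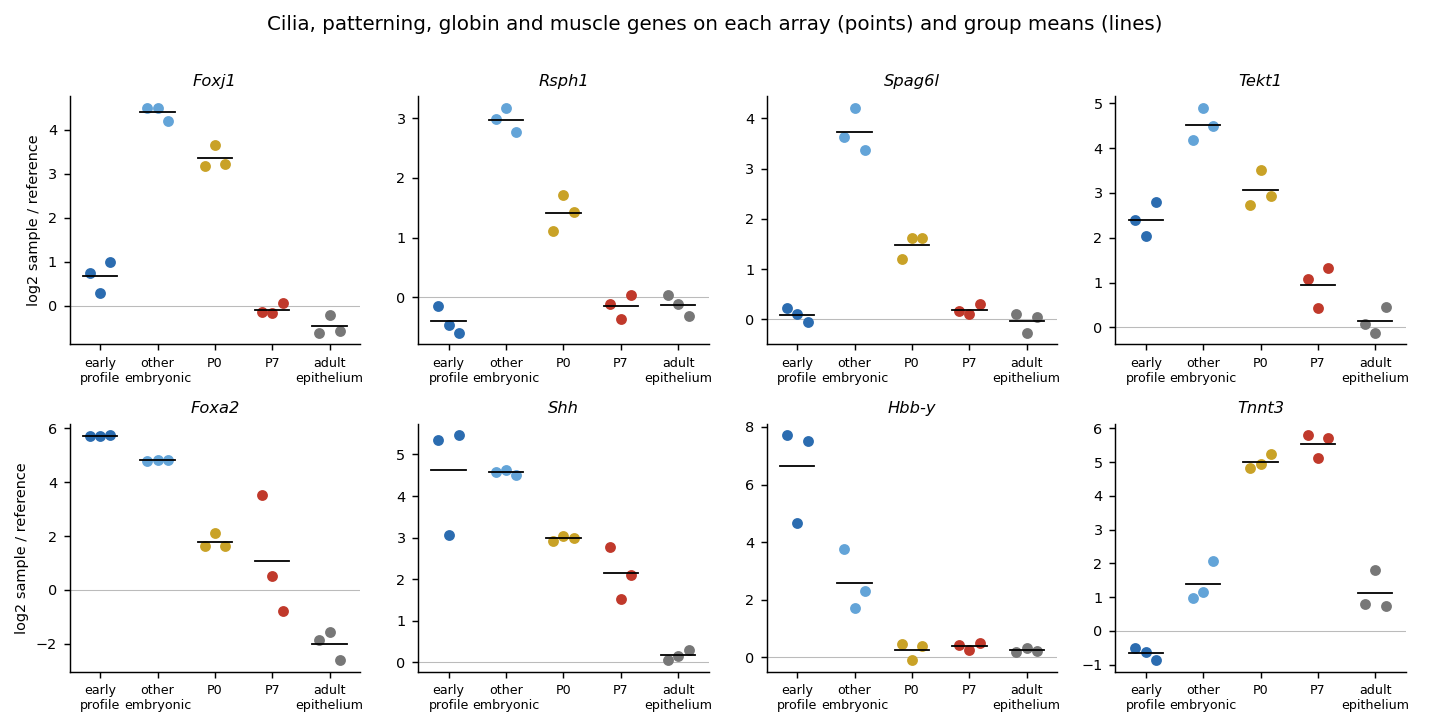
Log2 ratio of sample to reference (vertical axes) for 8 cilia, patterning, globin and muscle genes in the early profile, the other embryonic arrays, P0, P7 and adult epithelium, each point 1 array and each line a group mean; Foxj1 and Hbb-y are all-spot values. Foxj1, Rsph1 and Spag6l were near 0 at both ends and high between them, Foxa2, Shh and Hbb-y were lower at P7, and Tnnt3 was higher.

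Hedgehog genes were lower at P7. Of 14 measured, 5 were separated lower and 1 higher, with a median of −0.89, and 8 were called lower against the embryonic arrays. Shh, the ligand made by the foregut epithelium, was at 5.36, 3.05 and 5.46 early, 4.57, 4.63 and 4.52 on the other embryonic arrays and 2.78, 1.52 and 2.1 at P7, a net change of −2.49 (adjusted p = 0.00208, limma). With the scanner software's own processed signals its net change was 0.33, and with the deposited ratios 0.24, so its direction depended on the processing. The receptor Ptch1 was at 1.3, 1.67 and 2.05 early and 0.12, 0.01 and 0.25 at P7, and Hhip, which binds the ligand, at 3.16, 3.5 and 4.55 against 1.04, 0.86 and 1.3. Hhip was also lower at P7 than at P0, by 1.19 (adjusted p = 0.0262, limma). Foxf1, a target in the mesenchyme, was at 2.7, 1.91 and 2.94 early and 0.83, 0.55 and 1.13 at P7. Dhh, the ligand of Schwann cells, was the higher member, with 1.02, 2.01 and 1.5 early and 3.77, 3.1 and 3.65 at P7.

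Wnt genes moved both ways, with 6 of 30 separated higher and 6 lower, against 9.33% and 3.75% of all genes. Their median was −0.18. The ligand gene Wnt3a was at 0.12, 0.44 and 0.21 early, at 3.27, 3.72 and 3.66 on the other embryonic arrays and at 3.69, 4.46 and 4.05 at P7, with an adjusted p of 0.0679 (limma). Sfrp4, a secreted inhibitor, was at −1.42, −0.78 and −1.1 early and 1.22, 2.14 and 2.34 at P7, 1.32 above P0 (adjusted p = 0.0371, limma). Axin2, a target of the pathway, was at 2.12, 2.43 and 3.31 early and 0.74, 1.1 and 1.35 at P7. Dkk1, an inhibitor, was at 1.44, 3.59 and 1.22 early and at 0.14, 0.08 and 0.04 at P7.

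Of 24 Bmp and Tgf-beta genes 1 was separated higher and 2 lower (median −0.04). Of 25 Notch and Fgf genes 4 were separated higher and 1 lower (median 0.08). The shares over all genes were 9.33% and 3.75%. Bmp2 was the higher one, at 0.38, 0.56 and 0.23 early and 2.13, 1.27 and 1.67 at P7, and Tgfb2 the lower one with the largest difference, at 2.76, 1.75 and 2.85 against 1.15, 0.81 and 1.28. The Notch ligand gene Dll1 was at 1.01, 0.59 and 0.85 early and 2.91, 2.88 and 3.23 at P7. Its relative Dll3 was at 2.46, 2.19 and 2.64 early and 0.39, −0.22 and −0.1 at P7.

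Cyp26a1, Cxcl13 and Crispld1 were among the 10 largest decreases called in the labelled comparisons. Cyp26a1 was at 4.66, 3.29 and 5.06 early, 3.17, 3.24 and 3.12 on the other embryonic arrays and 0.33, 0.41 and 1.1 at P7. The chemokine gene Cxcl13 was at 4.26, 2.94 and 4.95 early and, not well above background, at 0.25, 0.13 and 0.12 at P7, which is 14.8-fold lower by ratio and at least 20.7-fold lower by the Cy5 level alone. Crispld1 was at 3.61, 4.95 and 4.42 early and 1.31, 0.91 and 1.38 at P7. All 3 were called lower (adjusted p = 0.000582, 0.000642 and 0.00107, limma).

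Genes of the cell cycle were lower at P7, with small differences. Of 16 measured, 3 were separated lower and none higher, with a median of −0.4, and 12 of the 20 tested were called lower. With all spots 17 of 36 were separated lower, with a median of −0.94, and 30 of 36 called lower, 16.4% of all tested genes being lower. Cenpe, a kinesin of the kinetochore, was at 0.11, 0.05 and 0.02 early and −1.37, −1.21 and −1.49 at P7. The mitotic cyclin gene Ccnb1 was at 0.27, −0.33 and −0.35 early, −0.99, −1.01 and −1.18 at P0 and −1.09, −1.27 and −1.35 at P7. Mki67, a marker of dividing cells, changed by −0.49 and Top2a by −0.85. The decrease had been reached by P0, with 1 gene of the list higher and none lower at P7 than at P0.

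Ccnb1 is shown for its promoter, on the minus strand at chr13:100786487-100786736 on GRCm38.p6, with CCAAT in capitals, searched on both strands.
Ccnb1: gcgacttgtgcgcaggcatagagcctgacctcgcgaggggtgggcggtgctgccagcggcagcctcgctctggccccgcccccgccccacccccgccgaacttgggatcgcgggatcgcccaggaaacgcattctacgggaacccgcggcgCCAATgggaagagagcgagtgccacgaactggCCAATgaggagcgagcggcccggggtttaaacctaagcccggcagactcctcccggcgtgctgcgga
CCAAT occurs in 22 of 26 cell cycle genes (84.6%) and in 34.5% of all promoters, and TTTGAA, the letters of the cell cycle homology region, in 8 of 26 (30.8%) and 16.3%. TTTGAA is not particular to this list, since it occurs in 7 of 18 cornified envelope genes (38.9%) and 5 of 14 small proline-rich genes (35.7%).

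Embryonic growth genes did not fall together. Of 16 measured, 5 were separated lower and 3 higher, against 3.75% and 9.33% of all genes, with a median of −0.37. Hmga2, a chromatin protein of embryonic cells, was at −0.3, 0.54 and −0.12 early and already at −2.67, −2.17 and −2.44 on the other embryonic arrays, with −2.81, −3.03 and −3.27 at P7 (adjusted p = 0.0509, limma). The mRNA-binding protein gene Igf2bp1 was at 1.8, 1.28 and 2.22 early, −0.03, 0.22 and 0.17 on the other embryonic arrays and −1.25, −1.04 and −1.19 at P7 (adjusted p = 0.0065, limma). Igf2, a growth factor of the embryo and one of the targets of that protein, was at 4.52, 1.3 and 4.14 early and 4.55, 4.6 and 4.54 at P7. Without E11.5 replicate 2, the array with the smallest SD of log2 ratios, the early values of Igf2 were close to those at P7. The source of the low Igf2 value on that array was not tested. In adult epithelium Igf2 was at −1.1, −0.84 and −0.6.

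Of 20 Hox genes, 3 were separated lower and 1 higher, against 3.75% and 9.33% of all genes, with a median of −0.33. Hoxa2 was at 3.2, 3.37 and 4.08 early and 1.71, 2.22 and 2.01 at P7. Hoxa5 had its minimum between the ends, at 2.0, 1.31 and 1.93 early, −0.08, −0.43 and −0.18 on the other embryonic arrays and 1.07, 0.59 and 0.3 at P7. Hoxd8 was the higher gene, at −1.84, −1.59 and −1.91 early and 0.56, −0.78 and 1.29 at P7.

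The early arrays carried transcripts of the embryonic globins, which mark the primitive red cells that fill the embryo before the liver takes over. The globin and red cell list did not fall as a whole. Of its 13 genes 2 were separated higher and 4 lower with all spots, against 11.5% and 4.93% of all genes. The median was −0.24, and Alas2 was the highest, with a net change of 1.29. The embryonic beta-globin gene Hbb-y was at 7.71, 4.66 and 7.52 early, at 3.76, 1.71 and 2.3 on the other embryonic arrays, at 0.46, −0.1 and 0.4 at P0 and at 0.43, 0.27 and 0.51 at P7 in all-spot values, the largest decrease by that measure (−6.23). Hbb-bh1 was at 4.99, 3.31 and 5.08 early and at −0.44, −0.46 and −0.48 at P7, 30.4-fold lower by ratio and at least 401-fold lower by the Cy5 level alone. The embryonic alpha-globin gene Hba-x was at 4.66, 2.2 and 4.51 early and −0.35, −0.15 and 0.25 at P7, 14.7-fold lower by ratio and at least 232-fold lower by the Cy5 level alone. The Cy3 level of these 2 genes was lower too, by a log2 difference of −3.72 and −4.17. On all 3 embryonic globin genes E15.5 replicate 1 lay close to E11.5 replicate 1, and E11.5 replicate 2 was lower. These arrays were grouped by their correlation over the same values, so this closeness is a description and no check of the grouping.

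Muscle genes made up the other large group of increases. Of 24 skeletal muscle genes, 19 were separated higher and none lower, with a median of 3.11, and 22 of the 27 tested were called higher. Tnnt3, the troponin T of fast fibres, was at −0.51, −0.61 and −0.87 early, 0.97, 1.14 and 2.08 on the other embryonic arrays, 4.84, 4.93 and 5.25 at P0 and 5.79, 5.14 and 5.72 at P7, a net change of 6.22 (adjusted p = 0.000104, limma). Myog, the factor that starts myoblast fusion, had begun earlier, at 2.21, 0.93 and 0.26 early, 1.55, 2.37 and 2.9 on the other embryonic arrays and 4.45, 4.39 and 4.37 at P7. Ckm, the muscle creatine kinase, was at −0.19, −0.34 and −0.06 early and 5.14, 4.79 and 4.98 at P7, and in adult epithelium it was still at 1.82, 3.3 and 1.18.

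The myosin heavy chain genes Myh3, Myh2, Myh1, Myh4 and Myh8 lie in a row on the chromosome and all 5 were separated higher in all-spot values. Myh3, the embryonic form, was at 4.18, 0.54 and 1.25 early and 5.58, 6.11 and 5.54 at P7 in those values. Myh4, of fast adult fibres, was at 0.88, 0.24 and 0.57 early and 5.5, 4.54 and 5.51 at P7, and Myh8, the perinatal form, at 0.87, 0.47 and 0.62 against 3.39, 1.3 and 3.68. On P7 replicate 2 Myh4, Myh8, Myl1 and Mb had the lowest value of the 3 P7 arrays. Mb, which encodes myoglobin, was there at 1.64, against 2.99 and 3.28 on replicates 1 and 3.

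The promoter of Ckm is shown as one of the muscle genes with the largest net change. It lies on the plus strand at chr7:19410844-19411093 on GRCm38.p6, with CAGCTG in capitals, an E-box that reads the same on both strands and is bound by myogenic factors.
Ckm: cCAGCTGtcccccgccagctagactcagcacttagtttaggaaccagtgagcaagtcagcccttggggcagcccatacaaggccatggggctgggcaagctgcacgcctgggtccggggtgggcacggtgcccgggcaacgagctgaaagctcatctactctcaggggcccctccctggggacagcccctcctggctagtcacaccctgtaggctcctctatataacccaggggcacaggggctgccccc
CAGCTG occurs in 16 of 32 skeletal muscle genes (50%) and in 12.8% of all promoters. None of the 5 motifs contains another.

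Smooth muscle genes had smaller net changes, largely present on the other embryonic arrays. With all spots 11 of 16 were separated higher and 1 lower, with a median of 1.46. Against the embryonic arrays 4 were called higher and 3 lower. These counts were near the shares over all tested genes, 19.8% higher and 16.4% lower. Acta2, smooth muscle actin, was at −0.04, 0.17 and 0.19 early, already at 1.94, 2.12 and 2.07 on the other embryonic arrays and at 2.77, 2.43 and 2.32 at P7. Des, which encodes desmin of smooth and striated muscle, was at 0.39, −0.34 and −0.43 early, 3.67, 3.36 and 3.56 on the other embryonic arrays and 3.85, 3.54 and 4.19 at P7. Myocd, a co-activator of smooth muscle genes, was the lower one, with 3.71, 3.11 and 3.83 early and 2.46, 2.13 and 2.24 at P7 (adjusted p = 0.00167, limma).

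Of 20 collagen and matrix genes 7 were separated higher and none lower (median 0.77), against 9.33% and 3.75% of all genes. Several were highest on the other embryonic arrays. Col1a1 was at 0.47, 0.41 and 0.31 early, 2.31, 2.4 and 2.43 on the other embryonic arrays and 1.27, 2.04 and 1.59 at P7. Of 12 vessel genes 3 were separated higher (median 0.51), against the same 9.33%. Lyve1, of lymphatic vessels, was at 1.17, 1.33 and 1.34 early and 3.76, 2.67 and 3.91 at P7. Of 24 enteric neuron and glia genes 2 were separated higher and 3 lower, against the same 9.33% and 3.75%, with a median of −0.18. The neurofilament gene Nefl was at 5.37, 3.29 and 5.59 early and 2.92, 1.95 and 2.48 at P7, whereas the neuropeptide gene Vip was at 0.17, −0.1 and 0.01 early and 4.36, 2.96 and 3.99 at P7.

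Defence and detoxification genes were higher at P7 in many members. Of 34 immune and antigen presentation genes 14 were separated higher and none lower (median 0.78), and 20 were called higher. Defb1, an epithelial defensin, was at 0.01, 0.01 and −0.22 early, 0.05, 0.01 and −0.11 on the other embryonic arrays and 4.1, 5.37 and 4.56 at P7, at least 19.3-fold higher by the Cy5 level. Il1a, a cytokine stored in keratinocytes, was at −0.03, 0.05 and −0.11 early and 3.01, 2.86 and 4.24 at P7. Camp and S100a8, of neutrophils, were highest on P7 replicate 2, Camp at 1.2, 5.08 and 1.81 and S100a8 at −1.11, 2.52 and −0.67. Of 19 detoxification and Nrf2 target genes 8 were separated higher and 1, Cyp26a1, lower (median 0.88), and 13 of the 21 tested were called higher. Gsta3, a glutathione transferase, was at −2.9, −1.26 and −2.81 early and 1.24, 2.02 and 1.11 at P7, and Nqo1, a target of Nrf2, at −2.62, −0.94 and −2.29 against 0.45, −1.06 and −1.96, where the groups overlapped. Nfe2l2, the gene of Nrf2, had a net change of 1.07 (adjusted p = 0.026, limma).

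Markers of neighbouring tissues were measured beside these results. All 8 liver markers were separated higher with all spots, with means of −0.24 to −0.1 early, 1.52 to 1.95 on the other embryonic arrays and 2.86, 4.58 and 3.04 at P7. The heart markers had means of 0.15 to 0.57 early and 1.4 to 1.86 at P7, and the fat markers −0.5 to −0.38 and 1.3 to 1.61. Of 9 cartilage markers 1 was separated lower and none higher (median −0.24), and of 8 thymus and lymphoid markers also 1 lower (median −0.15). Of 4 thyroid markers 1 was higher (median 0.09), Foxe1, which the esophagus also expresses. Among all genes 9.33% were separated higher and 3.75% lower. Of 5 sex markers 3, all Y-linked, were separated lower at P7 with all spots, and the Y-linked Uty was not, with a net change of −0.28. Eif2s3y was at 0.73, 1.99 and 2.54 early and −3.03, −2.85 and −3.46 at P7 in all-spot values, at least 26.6-fold lower by the Cy5 level, and Ddx3y at −0.26, 0.36 and 0.44 against −1.94, −1.43 and −2.11. Xist was at 0.39, −0.15 and 0.65 against 1.42, 1.46 and 0.92. The labels used give no sex, and the part of sex and of these tissues in the net changes was not tested.

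**Figure D4:**
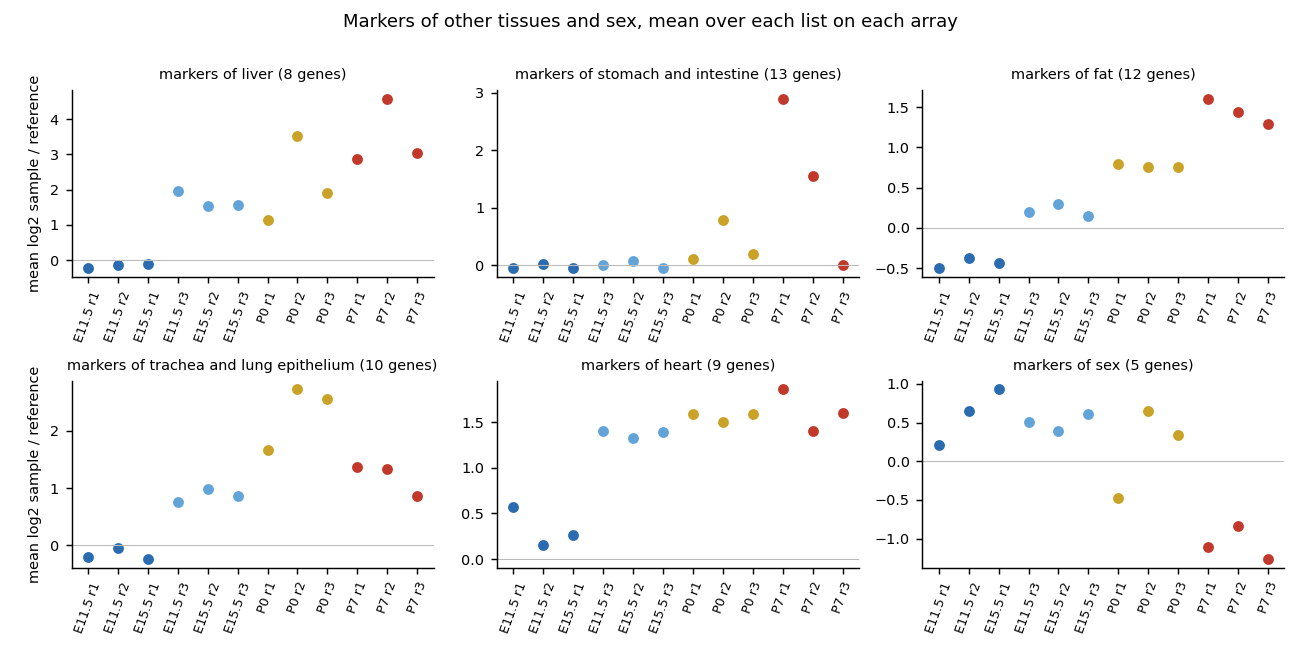
Mean log2 ratio of sample to reference over each of 6 marker lists (vertical axes, all-spot values) on each of the 12 time-course arrays (horizontal axes; r, replicate), each point 1 array. Liver markers were highest on P7 replicate 2 and stomach and intestine markers on P7 replicates 1 and 2. The mean of the sex markers was lower on all 3 P7 arrays than on the early arrays, while Xist, one of them, was higher.

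Most of the net change had been reached at birth. Of the 1458 genes separated higher, 1201 were called higher against the embryonic arrays and 115 against P0, and of the 586 lower genes 476 and 26. Over the 1327 higher genes with values in all groups, the median gene had covered 30.9% of its net change on the other embryonic arrays and 86.7% at P0. Of these genes 405 had passed 50% on the other embryonic arrays, 710 at P0 and 212 only at P7. For 562 lower genes the shares were 42.9% and 89.4%, and 233, 277 and 52 genes passed 50% at these points. The calls against the embryonic arrays and these shares use the same early and P7 arrays as the rule that chose the genes, so both are a description. The P0 calls use the same P7 arrays, and their number over all genes depended on the fit, 372 here and 789 with only P0 and P7 fitted.

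**Figure D5:**
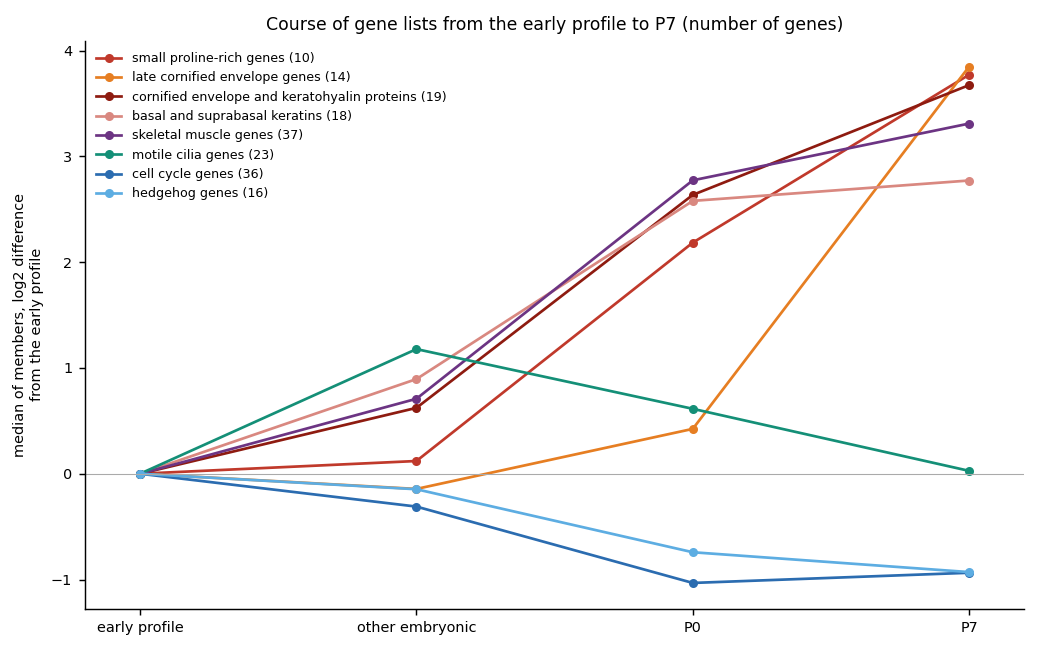
Median difference from the early profile (log2, vertical axis, all-spot values) over the members of 8 gene lists on the other embryonic arrays, at P0 and at P7 (horizontal axis), with the number of genes. Small proline-rich and muscle genes climbed most between the other embryonic arrays and P0, late cornified envelope genes after P0, and motile cilia genes returned to the level at the start.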

How the data were processed

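Expression was measured on 27 two-channel Agilent 4x44k arrays, of which 12 from wild-type whole esophagi (E11.5 and E15.5 embryos, P0 and P7 pups) entered the fit. The scanner files deposited by the authors hold mean spot intensities, local background intensities and processed intensities of both colours, written by Agilent Feature Extraction 10.5.1.1 or 10.7.3.1 per the file headers (the submitters' processing notes name 9.1, and the study's methods name a GenePix scanner where the headers name an Agilent one). The value table deposited by the authors gives, per probe, the log10 ratio of Cy5 over Cy3, and these values matched the spot means of the ratio in the scanner files. Log2 ratios were computed here from the deposited intensities: normexp background correction with an offset of 50, loess within each array with control spots at weight 0, and outlier-marked spots left out, likewise spots whose local background was over 5 times the median of the array, a rule set after seeing the data. Spots and then the 41174 probes were averaged to 27670 genes, named by RefSeq accession (22951 probes), symbol (6659), synonym (3109) or the file's own name (8455).

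Genes were tested if Cy5 of a probe stood well above background on 3 or more of the 12 arrays and each of the 4 groups had at least 2 values. The packages data.table (version 1.17.8), limma (3.58.1) and statmod (1.5.0) were run in R (4.3.3), with Benjamini-Hochberg adjustment and a threshold of 0.05, on labelled groups, and the code was tested on simulated data. The authors' SAM test was not used. The median Cy5 intensity was 88.5 to 146 per array and 60.5% to 69.3% of spots were well above background, and the number of arrays limits the precision. Groups and replicate numbers followed the sample titles, with which some descriptions disagreed in replicate number. Deviations from the group means correlated at 0.117, 0.311 and 0.17 between P0 and P7 arrays of equal number, over 0.1 in each pair. No other 2 groups had all 3 pairs over 0.1, but E11.5 and P7 came near it, at 0.085, 0.214 and 0.151. Arrays of unequal number were not compared and no label gives a pairing, so these values do not show one. The replicate number was used as a block only as an alternative. The regrouped early profile, the gene lists and the genes named (the 10 largest changes each way that were also called against both labelled embryonic comparisons, up to 4 per list with the largest change, and a fixed set) were chosen with earlier results of these data known, and neighbouring genes and promoters were chosen after their values were seen. Promoters were taken from RefSeq for 12694 of 19527 genes tested with all spots. The adult epithelium was normalized alike but was in no test. Alternatives varied the background, normalization, spot and gene filters, probes, groups in the fit, blocks and arrays.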

Additional observations from a re-analysis of the deposited data

How the results depend on the processing

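The 2044 separated genes of the net change compare with 4280 (2094 higher and 2186 lower) from the signals as Feature Extraction processed them, 5436 (2846 and 2590) from the deposited ratios and 3217 with outlier-marked spots kept. The first 2 counts are over 15630 and 15632 genes. The last 2 are over 19527 and 19525, with no marked spot left out. The share of higher genes was 71.3%, against 48.9% with processed signals and 52.4% with deposited ratios, which moved the median of all genes to −0.167 and −0.138. For P7 against all embryonic arrays 56.4% of calls were higher, against 42.8% with processed signals, 44.9% with deposited ratios and 40.5% with median centring in place of loess. Shh reversed to 0.33 with processed signals and 0.24 with deposited ratios, Nfe2l2 to −0.15 with Nrf2-/- P7 arrays, whose labels carry its deletion, and Spint2 against the embryonic arrays to −0.0339 (adjusted p = 0.961, limma; 1.18 in the main setting) with the sample channel alone. With the 3 arrays labelled E11.5 as the early group 1482 genes were separated, and with all 6 embryonic arrays 1366.

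Calls of P7 against all embryonic arrays were 5284, and 1670 if at least 2-fold. Against E11.5 as labelled the 4211 calls became 2604 with each spot's own local background, 2550 with the groups compared alone in the fit, 1630 if at least 2-fold and 2649 without E11.5 replicate 2 and P7 replicate 2. Against P0 the 372 calls became 156 with own local background, 236 with both channels well above background on 60% of arrays, 716 with all 27 arrays in the fit, 789 with the groups compared alone and 200 if at least 2-fold. Own local background, the sample channel alone, the Nrf2-/- arrays and the pair left out were added after seeing the data. Leaving out 1 array gave 2039 to 2265 separated genes, and 3796 to 5639, 2624 to 4791 and 160 to 467 calls in the 3 tests. Without E11.5 replicate 1 the E11.5 comparison kept 2624 calls, and the P0 comparison had 160, 184 and 161 without P0 replicates 1, 2 and 3 and 193 without P7 replicate 1. The cause of these shifts was not tested.

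With slide as a random block the 3 tests gave 4792, 3662 and 307 calls. The replicate block gave 5251, 4261 and 374. Between P7 and P0, whose pairing by number was not shown, 319 of the 372 calls were shared with the block. With only P0 and P7 in the fit the block, added after seeing the data, gave 1061. The P0 calls of Lce1a1, Calm4, Dsg1a, Elovl4, Alox12e, Hhip, Sfrp4 and Duoxa2 held with the block in both fits. Over all 18 pairs of equal number the correlation of deviations was −0.405 to 0.528, with 7 over 0.1. A scan block was not run, since all 12 arrays share a scan day. Over named genes and all alternatives, 3602 of 4315 net changes moved by less than the spread of their replicates, and 5332 of 5898 test results kept their direction and side of the threshold. Genes near background limit what can be seen of decreases.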

Other observations

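Several gene clusters outside the lists above also changed as blocks of neighbours, in all-spot values and chosen after those were seen. Of the Ly6 family, which encodes small cell surface and secreted proteins, the neighbours Psca, Slurp1, Lypd2, Lynx1, Ly6d and Ly6k were all separated higher at P7. Ly6d had the largest net change of them, 6.07 from −2.05 ± 0.65 (SD, n = 3) to 4.02 ± 0.19, and stood at 2.04 on the other embryonic arrays (adjusted p = 0.0155, limma). Psca reached 4.49 from −0.16 and was at 0.62 in adult epithelium, whereas Slurp1 reached 2.85 from −0.89 and was at 5.32 there. The hair keratin genes Krt33a, Krt33b, Krt34, Krt31, Krt32 and Krt35 were also separated higher, Krt32 from −0.04 to 3.06 (adjusted p = 2.23e-05, limma) and Krt34 from −0.14 to 1.32 after 3.04 at P0. Duoxa2, a maturation factor of the dual oxidases that make hydrogen peroxide, rose from 0.17 to 5.13, with 4.0 at P0 and 0.14 in adult epithelium (adjusted p = 2.59e-08, limma; P7 against P0 adjusted p = 0.0124). Its neighbour Duox1 went from −0.09 to 3.32 and was at 4.96 in adult epithelium. The complement genes C1qa, C1qb and C1qc, expressed by macrophages, had net changes of 1.81, 2.09 and 1.5. On the lower side the neighbours Grm3, Sema3d, Sema3a, Sema3e and Pclo were separated, among them the guidance cue Sema3a from 0.07 to −1.27 (adjusted p = 3.69e-06, limma).

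Genes that were high between the ends were not all cilia genes by name. Of 13099 genes with less than 2-fold net change, 42 were at least 2-fold higher both on the other embryonic arrays and at P0 than at either end, and 6 were lower. Besides the cilia genes Dnali1, at 0.26 early, 3.87, 3.03 and then 0.01 at P7, and Odf3b, these held Agr3, a protein disulfide isomerase of secretory and ciliated epithelium, at 0.04, 4.47, 3.03 and 0.35. Hdc, which makes histamine, was at −0.15 early, 2.85 on the other embryonic arrays, 2.53 at P0 and 0.04 at P7.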
